A study of Mus musculus with 4 samples.

Results

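Cells make cholesterol and fatty acids from the same precursor, acetyl-CoA, and the genes of both routes form the set described here. It holds 36 genes, picked by name from the 39179 genes of the deposited table: 23 for sterol synthesis and its control and 13 for fatty acid synthesis. Of these, 35 were found by symbol, and Msmo1 was found by its identifier ENSMUSG00000031604 under the older symbol Sc4mol. All 36 passed the filter on low values, and Idi1, the lowest of them, had a mean of 40.5 normalized read counts over the 4 libraries. The RNA came from primary mouse aortic smooth muscle cells (SMC), the contractile cells of the vessel wall, and was depleted of ribosomal RNA before sequencing. There were 2 libraries from Sm-Yap/Taz-KO mice (KO), labelled as knockouts of the transcriptional co-activators YAP and TAZ, and 2 from wild-type mice (WT). Both groups had received tamoxifen, 18 days before the cells were taken. Not given in the sources used here were the Cre driver and the cells in which it acts, the alleles, whether WT mice carried Cre, the age of the mice, any pooling of animals and any time in culture. Whether replicates of a group are separate animals is also not stated, and the p-values therefore cover the variation of these samples, which could be technical.

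Cholesterol is built by the mevalonate pathway, in which acetyl-CoA units are joined to isoprenoids and then to squalene, and squalene is closed into rings and trimmed. Fatty acids are built from malonyl-CoA by fatty acid synthase and are then elongated and desaturated. The SREBP transcription factors, encoded by Srebf1 and Srebf2, turn on the genes of both routes. When sterol is low, SCAP carries them out of the endoplasmic reticulum, and when it is high the INSIG proteins hold them there.

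The libraries held 13861333 and 13279332 normalized read counts in KO and 14235444 and 14519178 in WT. Yap1 had 947 and 962 normalized counts in KO, against 1966 and 1877 in WT, and Wwtr1, which encodes TAZ, had 2848 and 2466 in KO, against 3423 and 4016 in WT. Yap1 fell (log2 fold change -1.01, limma adjusted p = 0.00802), Wwtr1 did not pass (-0.48, limma adjusted p = 0.0553), and neither was absent, so these values do not show a complete loss; the deleted parts of the genes are not given. The smooth muscle markers Acta2, Myh11 and Tagln were present in all 4 libraries, and 7 of 9 smooth muscle markers fell in KO. In the same KO libraries 15 of 15 macrophage, 10 of 14 adipocyte, 5 of 11 endothelial, 1 of 9 fibroblast, 1 of 6 tested Schwann cell and 6 of 8 cell division markers rose, while 1 adipocyte marker (Plin4) and 1 Schwann cell marker (Prx) fell. Among all tested genes 9.58% rose and 6.7% fell. The fibroblast count of 1 is near that share. Both KO libraries nevertheless lay above both WT libraries for 8 of 9 fibroblast markers (30.7% of all tested genes). The median log2 fold change of the 9 was 1.26, against -0.02 for all tested genes. The 6 tested Schwann cell markers are too few to compare with these shares. In such bulk RNA, fewer cells of a type and less RNA per cell cannot be told apart.

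Promoter sequences are given first, since both routes are known targets of SREBP together with NF-Y. RefSeq windows of 300 bases on GRCm38.p6, 250 before and 50 after the gene start, were at hand for 29 of the 36 genes. Both strands were searched for TCACNCCAC, a sterol regulatory element that SREBP binds, for CCAAT, the box bound by NF-Y, and for the E-box, CACGTG, bound by USF and other factors. The NF-Y box lay in a window of 25 of the 29 genes, in 18 of 19 sterol and 7 of 10 fatty acid genes, against 42.2% of all tested genes with a window and 37.4% of all windows. The E-box lay in a window of 6 of the 29 genes, against 11.4% of tested genes. The sterol regulatory element lay in a window of Hmgcs1 only among these genes, against 1.46% of tested genes and 1.24% of all windows. A match is only a stretch of letters, and no motif search bears on which factor was bound. Only these strings were searched, within 300 bases, so a missing match does not show that a gene lacks a binding site. The 150 bases before the start are shown for the gene that passed the test (Acacb), the fatty acid synthase gene (Fasn), the gene of an early enzyme of the sterol route, with the sterol regulatory element (Hmgcs1), and the gene with the lowest log2 fold change (Lss). Capitals mark the motifs, with ATTGG for the NF-Y box on the other strand.
Acacb, chr5:114165368-114165517, plus strand: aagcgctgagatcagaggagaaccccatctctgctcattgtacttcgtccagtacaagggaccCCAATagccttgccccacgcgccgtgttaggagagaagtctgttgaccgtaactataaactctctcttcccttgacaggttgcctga
Fasn, chr11:120824548-120824697, minus strand: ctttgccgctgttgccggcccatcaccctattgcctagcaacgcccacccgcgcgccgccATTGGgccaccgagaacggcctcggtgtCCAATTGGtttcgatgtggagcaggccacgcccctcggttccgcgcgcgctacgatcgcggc
Hmgcs1, chr13:119690201-119690350, plus strand: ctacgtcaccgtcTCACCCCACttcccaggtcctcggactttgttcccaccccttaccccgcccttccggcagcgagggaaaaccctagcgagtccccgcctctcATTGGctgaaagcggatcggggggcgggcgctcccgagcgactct
Lss, chr10:76531455-76531604, plus strand: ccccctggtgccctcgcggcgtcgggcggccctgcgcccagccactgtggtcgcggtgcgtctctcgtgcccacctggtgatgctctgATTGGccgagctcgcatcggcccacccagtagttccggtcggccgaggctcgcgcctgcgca
The Fasn stretch holds the NF-Y box on both strands as one overlapping run and a further copy upstream. The Acacb stretch lies inside the annotated gene, at a start downstream of its first exon. Of the 150 bases shown, 17 in the Lss stretch and 9 in the Acacb stretch lie in annotated exons.

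The comparison of KO with WT asked whether these genes differ in the cells labelled as Yap/Taz knockout. Of the 36 genes, 1 rose (Acacb) and none fell at an adjusted p under 0.05 by limma, a test fitted over all 15058 tested genes, while 9.58% of all tested genes rose and 6.7% fell. At an unadjusted p under 0.05, limma had 4 of the 36 genes higher and 2 lower. Of all 15058 tested genes, 2699 were higher and 2199 lower at that threshold. The median log2 fold change, KO over WT, was 0.03 for the 36 genes and -0.02 for all tested genes. By route, the median was -0.14 for the 23 sterol genes and 0.35 for the 13 fatty acid genes. Both KO libraries lay above both WT libraries for 6 of the 36 genes (30.7% of all tested genes) and below both for 7 (32.1%). All 7 that lay below were among the 23 sterol genes, a share near the 32.1% of all tested genes. Without KO replicate 1 the median of the fatty acid genes was -0.16, and without KO replicate 2 it was 1.14. The median of the sterol genes was -0.13 without KO replicate 1 and -0.08 without KO replicate 2. It was -0.02, as for all tested genes in the main fit, without WT replicate 1, and -0.22 without WT replicate 2.

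**Figure D1:**
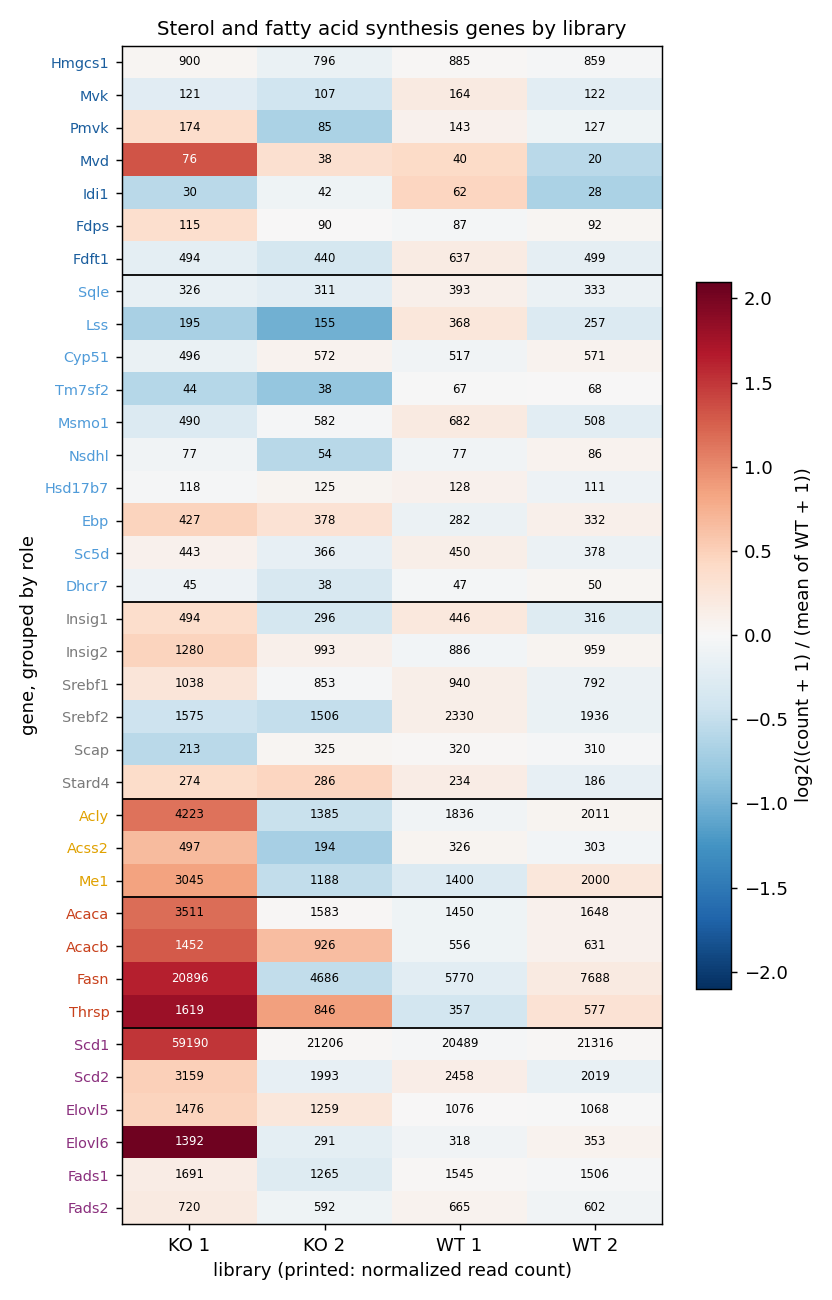
Normalized read count of the 36 genes (rows, grouped by role between the black lines, in the order in which the text takes them) in the 4 libraries (columns, KO left of WT); the number is the count and the colour is the log2 ratio to the mean of WT, with a pseudocount of 1. Red cells are concentrated in the KO 1 column of the fatty acid genes, where Elovl6 had 1392 counts in KO 1 and 291 in KO 2, against 318 and 353 in WT.

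In the mevalonate pathway down to squalene, none of 7 genes passed the test in limma, also at an unadjusted p under 0.05, and their median log2 fold change was -0.15. Hmgcs1, which encodes the synthase that makes HMG-CoA, had 900 and 796 normalized counts in KO, against 885 and 859 in WT. The KO values lay on either side of the WT values. Its log2 fold change of -0.04 (95% interval -0.33 to 0.25, n = 2 per group, limma) does not reach a 2-fold change in either direction.

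Fdft1, which encodes squalene synthase, had 494 and 440 normalized counts in KO, against 637 and 499 in WT. Both KO values lay below both WT values, by a margin of only a few counts, and the log2 fold change of -0.27 (SE 0.16) did not pass (limma adjusted p = 0.308). Another gene on the opposite strand, Ctsb, covers 18.3% of its exon length, and although the library kit was stranded, whether the counting used the strand is not stated. Mvk, the mevalonate kinase gene, had 121 and 107 in KO, against 164 and 122 in WT, with a log2 fold change of -0.31 (SE 0.24).

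The remaining genes of this stretch were low and scattered. Mvd, the decarboxylase gene, had 76 and 38 normalized counts in KO, against 40 and 20 in WT. Its libraries differed about as much within each group as the groups did, so that its log2 fold change of 0.90 had a 95% interval from -0.38 to 2.18. Idi1, which encodes isopentenyl diphosphate isomerase, had 30 and 42 in KO, against 62 and 28 in WT. Pmvk, the phosphomevalonate kinase gene, had 174 and 85 in KO, against 143 and 127 in WT, and was the sterol gene with the widest gap between the KO libraries. Fdps, which encodes farnesyl diphosphate synthase and shares 26.7% of its exon length with another annotated gene, had 115 and 90 in KO, against 87 and 92 in WT. Hmgcs1, Tm7sf2 and Scap also share 12.1% to 13.2% of their exon length with other genes.

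From squalene to cholesterol, none of 10 genes passed in limma, with 1 higher and 1 lower at an unadjusted p under 0.05. Log2 fold changes were negative for 8 of the 10, against 7843 of all 15058 tested genes. Among these 8, Cyp51 and Sc5d were close to no change, at -0.03 each. Lss encodes lanosterol synthase, which closes squalene epoxide into the first sterol (chromosome 10, 76531588 to 76557138, plus strand, GRCm38). It had 195 and 155 normalized counts in KO, against 368 and 257 in WT. Both KO libraries were below both WT libraries, but the WT libraries were themselves apart. The difference of -0.82 on the log2 scale (SE 0.24) was the lowest of the 36 genes, at a limma adjusted p of 0.0676, which does not pass. It passed after quantile normalization (limma adjusted p = 0.0448) and with the replicate number as a block (0.0254), and its adjusted p ran from 0.0254 to 0.385 over the alternatives.

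Tm7sf2, a sterol C14 reductase gene, had 44 and 38 normalized counts in KO, against 67 and 68 in WT, or -0.71 on the log2 scale (SE 0.30), at a limma adjusted p of 0.167. The groups did not overlap, at counts where sampling alone is wide. Sqle, which encodes squalene epoxidase, had 326 and 311 in KO, against 393 and 333 in WT, also without overlap. Dhcr7, the last reductase of the route, had 45 and 38 in KO, against 47 and 50 in WT.

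Ebp, which encodes the sterol isomerase, lay in the other direction. It had 427 and 378 normalized counts in KO, against 282 and 332 in WT, or 0.39 on the log2 scale (SE 0.16), at a limma adjusted p of 0.153. Both KO values were above both WT values. The groups overlapped for Cyp51, the lanosterol demethylase gene, with 496 and 572 in KO, against 517 and 571 in WT. They also overlapped for Msmo1, a C4-methyl sterol oxidase gene, with 490 and 582 in KO, against 682 and 508 in WT. Nsdhl, Hsd17b7 and Sc5d, which encode further enzymes that trim the sterol, overlapped too, with log2 fold changes of -0.33, 0.03 and -0.03. Over the 23 sterol genes, control genes included, the 95% interval of the log2 fold change lay within 1 in either direction for 16, so for those a 2-fold change is outside the interval, and for the other 7 it is not.

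**Figure D2:**
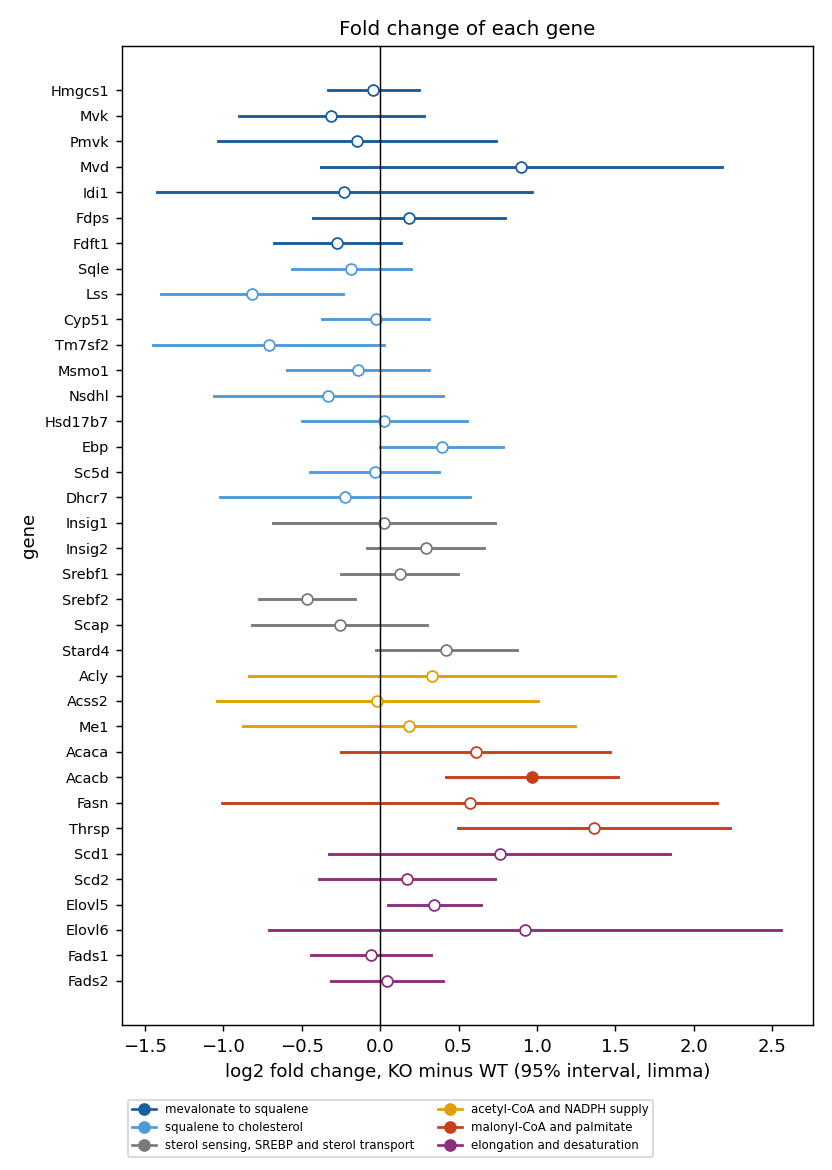
Log2 fold change of each of the 36 genes, KO minus WT (x axis), with its 95% interval from limma (bars, n = 2 per group), coloured by role; the filled point is the 1 gene that passed at an adjusted p under 0.05 and open points did not pass. The intervals are narrow for Hmgcs1 (-0.33 to 0.25) and wide for Elovl6 (-0.71 to 2.56) and Fasn (-1.01 to 2.15).

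Among the genes that sense sterol, none of 6 passed in limma, with none higher and 1 lower (Srebf2) at an unadjusted p under 0.05. Srebf2 encodes SREBP2, which chiefly drives the sterol route (chromosome 15, 82147181 to 82205379, plus strand). It had 1575 and 1506 normalized counts in KO, against 2330 and 1936 in WT. Both KO libraries were below both WT libraries, with a log2 fold change of -0.46 (SE 0.12, 95% interval -0.77 to -0.16), just outside the threshold (limma adjusted p = 0.0563). With the replicate number as a block it passed (limma adjusted p = 0.0372), and over the alternatives its adjusted p ran from 0.0372 to 0.32.

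Srebf1 encodes SREBP1, which chiefly drives fatty acid synthesis. It had 1038 and 853 normalized counts in KO, against 940 and 792 in WT, and the groups overlapped (log2 fold change 0.12, SE 0.15). Counts over the whole gene do not separate the SREBP-1a and SREBP-1c transcripts. Scap had 213 and 325 in KO, against 320 and 310 in WT, with KO replicate 1 the low library.

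The INSIG genes did not pass either. Insig1, itself a target of SREBP, had 494 and 296 normalized counts in KO, against 446 and 316 in WT. In both groups replicate 1 was the higher library and the groups overlapped. Insig2 had 1280 and 993 in KO, against 886 and 959 in WT, a log2 fold change of 0.29 (SE 0.15) without overlap. Stard4, which encodes a protein that carries cholesterol between membranes, had 274 and 286 in KO, against 234 and 186 in WT, or 0.42 on the log2 scale (SE 0.18), at a limma adjusted p of 0.173.

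Fatty acid synthesis differed most between the KO libraries themselves. Acly, which encodes ATP citrate lyase, the source of cytosolic acetyl-CoA, had 4223 and 1385 normalized counts in KO, against 1836 and 2011 in WT. KO replicate 1 was above and KO replicate 2 below both WT libraries. The log2 fold change of 0.33 (SE 0.48) turned to -0.47 without KO replicate 1 and was 1.14 without KO replicate 2. Acss2, which makes acetyl-CoA from acetate, had 497 and 194 in KO, against 326 and 303 in WT. Me1, the malic enzyme gene that supplies NADPH, had 3045 and 1188 in KO, against 1400 and 2000 in WT. Both followed the order of Acly, and none of these 3 genes passed in limma, also at an unadjusted p under 0.05.

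Acacb was the 1 gene of the 36 that passed. It encodes acetyl-CoA carboxylase 2, which makes malonyl-CoA at the mitochondrial surface, where malonyl-CoA restrains fatty acid oxidation (chromosome 5, 114146535 to 114250761, plus strand, GRCm38). It had 1452 and 926 normalized counts in KO, against 556 and 631 in WT. Both KO libraries were above both WT libraries, though 1.57-fold apart from each other. Acacb averaged 1189 ± 372 (SD, n = 2) in KO and 594 ± 53.0 in WT, a 2.00-fold difference of means, and 0.97 higher on the log2 scale (SE 0.22), at a limma adjusted p of 0.0375. The log2 fold change ran from 0.64 without KO replicate 1 to 1.29 without KO replicate 2. The call was lost without a filter on low values, without an intensity trend and without any single library, and over the alternatives the adjusted p ran from 0.0199 to 0.301.

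Thrsp, a lipogenic protein gene also known as Spot 14, had the highest log2 fold change of the 36 genes. It had 1619 and 846 normalized counts in KO, against 357 and 577 in WT, again without overlap. Its limma adjusted p of 0.0514, at a log2 fold change of 1.36 (SE 0.35), lay just outside the threshold. It passed with a pseudocount of 8, after rescaling to the same total, after quantile normalization and with the replicate number as a block, and over the alternatives its adjusted p ran from 0.0320 to 0.36. Without KO replicate 1 its log2 fold change was 0.90, and without KO replicate 2 it was 1.83.

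Fasn, the fatty acid synthase gene (chromosome 11, 120805846 to 120824547, minus strand), had 20896 and 4686 normalized counts in KO, against 5770 and 7688 in WT. KO replicate 1 was 4.46-fold above KO replicate 2, and KO replicate 2 was below both WT libraries. The log2 fold change of 0.57 (SE 0.64) was -0.51 without KO replicate 1 and 1.65 without KO replicate 2. Acaca, which encodes acetyl-CoA carboxylase 1 and makes the malonyl-CoA used for synthesis, had 3511 and 1583 in KO, against 1450 and 1648 in WT. KO replicate 2 lay between the WT libraries.

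Scd1 encodes the stearoyl-CoA desaturase that makes oleate and is the most abundant of the 36 transcripts (chromosome 19, 44394455 to 44407879, minus strand). It had 59190 and 21206 normalized counts in KO, against 20489 and 21316 in WT. KO replicate 2 and both WT libraries had nearly the same value, and KO replicate 1 was 2.79-fold above KO replicate 2. Elovl6, which elongates palmitate, had 1392 and 291 in KO, against 318 and 353 in WT, and its 4.78-fold gap between the KO libraries was the widest of the set.

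The remaining elongation and desaturation genes were steadier. Elovl5, which elongates polyunsaturated fatty acids, had 1476 and 1259 normalized counts in KO, against 1076 and 1068 in WT. The groups did not overlap, and a log2 fold change of 0.35 (SE 0.12) gave a limma adjusted p of 0.107. Rescaled to the same total it passed (limma adjusted p = 0.0477, the lowest over the alternatives, of which the highest was 0.39).

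Fads1 and Fads2 encode the delta-5 and delta-6 desaturases of polyunsaturated fatty acids and are neighbours on chromosome 19. Fads1 had 1691 and 1265 normalized counts in KO, against 1545 and 1506 in WT. Fads2 had 720 and 592 in KO, against 665 and 602 in WT. For both genes KO replicate 1 was the highest and KO replicate 2 the lowest library, and the 95% intervals of the log2 fold change were -0.44 to 0.32 and -0.31 to 0.40. Scd2, a close relative of Scd1 with which it could share reads, had 3159 and 1993 in KO, against 2458 and 2019 in WT.

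The gap between the KO libraries ran one way across the fatty acid genes. All 13 fatty acid genes were higher in KO replicate 1 than in KO replicate 2, against 51.3% of all tested genes. In 7 of them (Elovl6, Fasn, Acly, Scd1, Me1, Acss2 and Acaca) the gap was at least 2-fold, on the log2(value + 1) scale, which held for 3.67% of all tested genes. Of the 23 sterol genes, Pmvk alone reached that gap, and Mvd, at 2.00-fold in unlogged counts, came just short of it. Between the WT libraries, 1 of the 36 genes, Idi1, was at least 2-fold apart (8.53% of tested genes). No gene of the set was at least 2-fold higher in KO replicate 2, against 5.85% of tested genes. KO replicate 1 lay above both WT libraries for all 13 fatty acid genes (41.3% of tested genes), KO replicate 2 for 3 of them, Acacb, Thrsp and Elovl5 (40.4%), and KO replicate 2 lay below both for 8 (43.7%). A difference between single libraries has no replicate check. Among the 9881 tested genes with a mean of at least 100 normalized counts, ordered by the ratio of KO replicate 1 to KO replicate 2, Elovl6 was in place 5, Fasn 6, Acly 12, Scd1 15, Me1 21, Acss2 22 and Acaca 37.

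Together the 13 fatty acid genes took 0.742% and 0.282% of all normalized counts in KO, against 0.269% and 0.287% in WT. Scd1 and Fasn made up 77.9% and 69.2% of that sum in KO, against 68.7% and 69.5% in WT. The 23 sterol genes took 0.0681% and 0.0638% in KO, against 0.0716% and 0.0616% in WT. The sterol share thus varied little in any library, whereas the fatty acid share stood apart in 1.

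Adipocytes are rich in fatty acid synthesis transcripts, so their markers are given beside these values. The 14 adipocyte markers summed to 21712 and 19133 normalized counts in KO, against 9857 and 11302 in WT, and none was at 0 in any library. Plin4, which fell with 4436 and 3622 in KO, against 7904 and 5710 in WT, made up much of the WT sums, and without it the other 13 summed to 17276 and 15511 in KO, against 1953 and 5592 in WT. Adipoq, which encodes adiponectin, had 1519 and 1765 in KO, against 176 and 589 in WT. Plin1 had 2605 and 2033 in KO, against 318 and 875 in WT, and Cidec had 1272 and 1441 in KO, against 124 and 375 in WT; both encode proteins of the lipid droplet. Between the KO libraries the markers went both ways, with 9 of 14 higher in KO replicate 1 and 5 in KO replicate 2. Ucp1, at 722 and 271 in KO, and Retn, at 603 and 320, were higher in KO replicate 1, and Lep, at 39 and 126, in KO replicate 2. The median log2 ratio of KO replicate 1 to KO replicate 2 was 0.14 for the adipocyte markers and 1.15 for the fatty acid genes. Between the WT libraries, most adipocyte markers were lower in replicate 1 (median log2 ratio of replicate 1 to replicate 2 of -1.52), where the fatty acid genes had -0.13. The part of adipocyte RNA in the values of Acacb, Thrsp and the other fatty acid genes was not tested.

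**Figure D3:**
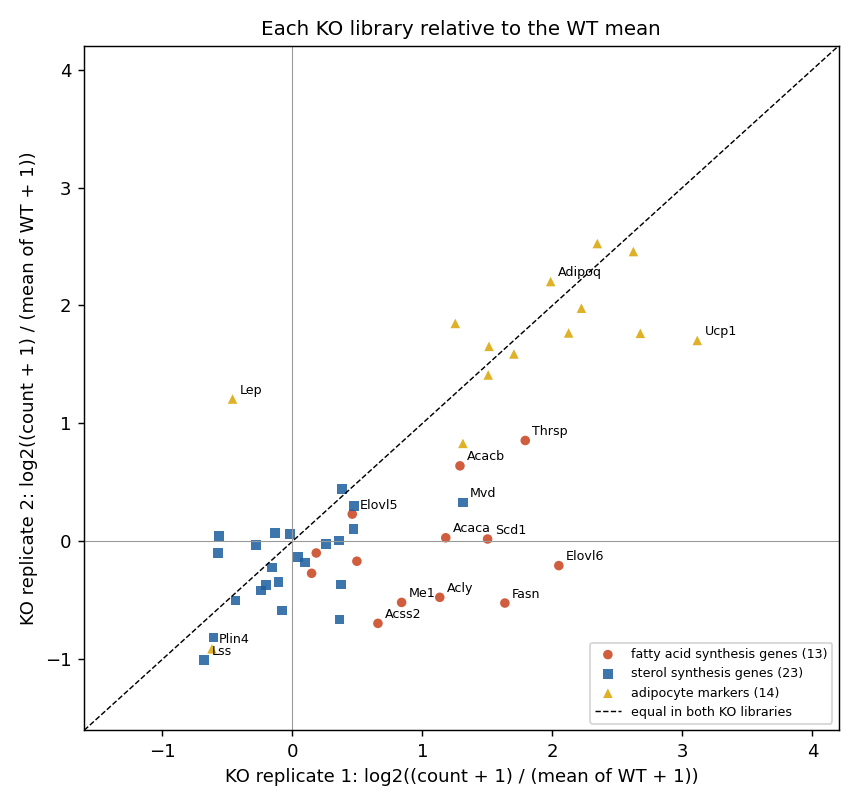
Log2 ratio to the mean of WT, with a pseudocount of 1, in KO replicate 1 (x axis) and KO replicate 2 (y axis) for the 13 fatty acid genes, the 23 sterol genes and the 14 adipocyte markers; the dashed line marks equal values in both KO libraries. The fatty acid genes lie below the line, with Fasn at 20896 counts in KO replicate 1 and 4686 in KO replicate 2, the adipocyte markers lie on both sides of it, most of them above 0 on both axes, and most sterol genes lie around 0.

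Levels of different genes were compared per kilobase of annotated exon. In WT the order began with Scd1, at 4272 normalized counts per kilobase (mean of 2 libraries), followed by Fasn at 615, Me1 at 442, Scd2 at 410 and Acly at 364. Dhcr7 was the lowest at 8.34, so that the set spanned 512-fold. In KO, Scd1 led at 8218 and Fasn followed at 1169, and Thrsp stood in place 3 at 563, against place 10 in WT at 213. These KO means pool unlike libraries: per kilobase, Scd1 had 12100 in KO replicate 1 and 4335 in KO replicate 2, Fasn had 1909 and 428.1, and Thrsp had 739.6 and 386.5. In KO replicate 2 alone, Fasn was thus below its WT mean and Scd1 close to its own, while Thrsp was in place 5 in KO replicate 1 and in place 3 in KO replicate 2, against places 13 and 10 in the WT libraries. The first enzyme of the sterol route in the order was Hmgcs1, in place 12 of the means of both groups, behind Srebf2 and Insig2, which were in places 10 and 8 in KO and in places 8 and 9 in WT.

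Pairs of related genes kept their order in most libraries. Per kilobase, Scd1 was 20.9-fold and 11.9-fold above Scd2 in KO, against 9.31-fold and 11.8-fold in WT. Insig2 was 2.31-fold and 2.99-fold above Insig1 in KO, against 1.77-fold and 2.70-fold in WT. Srebf2 was 1.19-fold and 1.38-fold above Srebf1 in KO, against 1.94-fold and 1.92-fold in WT. For the carboxylases, Acaca was 1.36-fold Acacb in KO replicate 1 and 0.964-fold in KO replicate 2, against 1.47-fold in both WT libraries. Elovl5 was 1.94-fold and 7.90-fold above Elovl6 in KO, against 6.18-fold and 5.52-fold in WT, and Fads1 was 1.61-fold and 1.46-fold above Fads2 in KO, against 1.59-fold and 1.71-fold in WT. These ratios were not tested.

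**Figure D4:**
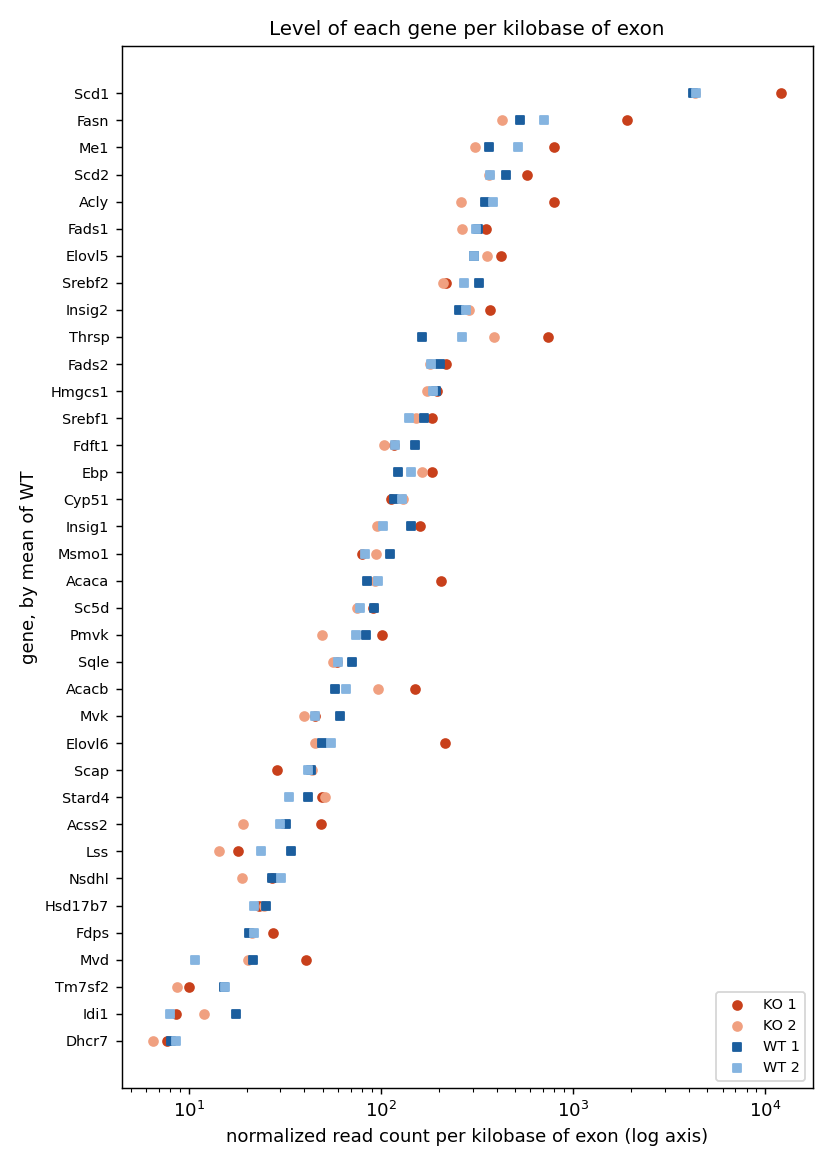
Normalized read count per kilobase of annotated exon (x axis, log scale) of the 36 genes (y axis, ordered by the mean of WT) in each of the 4 libraries (points). Scd1 is highest in every library, at 12100 in KO 1 and 4335 in KO 2, against 4188 and 4357 in WT, and the 4 points of most sterol genes lie close together.

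Around these genes, 46 related genes of lipid synthesis were examined, of which 44 passed the filter; Elovl2 and Elovl3 were listed at 0 in all 4 libraries. In limma 14 of the 44 rose and 2 fell, where 9.58% of all tested genes rose and 6.7% fell. The median of their log2 fold changes was 0.20, against -0.02 for all tested genes. The activation of fatty acids and their joining to glycerol held the largest number of the risers: 6 of 11 genes rose and none fell. The median of these 11 was 0.76. At an unadjusted p under 0.05 in limma, 8 of them were higher and none lower. Of all 15058 tested genes, 2699 were higher and 2199 lower at that threshold. Lpin1, which encodes the phosphatase that makes diacylglycerol, had 1759 and 1557 normalized counts in KO, against 997 and 959 in WT (0.76 on the log2 scale, SE 0.11), at a limma adjusted p of 0.0139. Both KO libraries were above both WT libraries, as for the fatty acid genes Acacb, Thrsp and Elovl5 and unlike the pattern of Fasn.

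Of 8 lipogenic transcription factors and regulators, 2 rose, 1 fell and 5 did not pass, with a median log2 fold change of -0.04. Pparg, the adipocyte regulator, had 303 and 316 normalized counts in KO, against 73 and 109 in WT (log2 fold change 1.78, SE 0.24). Mlxipl, which encodes the glucose-responsive factor ChREBP, had 317 and 300 in KO, against 138 and 147 in WT (1.11, SE 0.17). Among the isoprenoid and sterol accessory genes, of which 2 of 7 rose, Aacs, which activates acetoacetate for lipid synthesis, had 638 and 491 in KO, against 232 and 278 in WT (1.14, SE 0.19). All 3 rose, at limma adjusted p-values of 0.0116, 0.0140 and 0.0169. The 2 genes that fell were Prkaa2, which encodes a catalytic subunit of AMP-activated kinase, with 782 and 623 in KO, against 1473 and 1379 in WT (-1.03, SE 0.14), at a limma adjusted p of 0.0120, and Hacd1, listed as Ptpla, which encodes a dehydratase of fatty acid elongation, with 138 and 157 in KO, against 244 and 255 in WT (-0.76, SE 0.18), at 0.0400. None of 5 SREBP processing and sterol sensing genes, the proteases Mbtps1 and Mbtps2 among them, passed in limma, with 1 higher and 1 lower at an unadjusted p under 0.05. The same KO libraries had the higher adipocyte markers given above and higher macrophage markers. The 15 macrophage markers summed to 14690 and 19977 in KO, against 1405 and 3812 in WT, with none at 0. The part of these cell types in the rise of the related genes was not tested. In the same libraries 7 of 9 smooth muscle markers fell. Their part in the falls of Prkaa2 and Hacd1, and in the lower values of Lss and Srebf2, was not tested either. Without WT replicate 2 limma called 1 related gene higher, and without any other single library it called none, with 16 to 21 at an unadjusted p under 0.05 in either direction.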

How the data were processed

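The values are scores: normalized read counts per gene that the authors rounded to whole numbers and deposited as 1 table, 1 column per library. In the KO columns 45 and 44 of the whole numbers up to 400 occur for no gene, so the values are not raw counts and no count model was used. Per the submitters' processing notes, STAR 2.5.2b, featureCounts 1.5.1 (Subread), DESeq2 1.14.1, FastQC and the build mm10/GRCm38 were used, with no roles given. Strand setting, annotation release and treatment of reads with several places: not given in the sources used here.

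Values were taken as log2(value + 1), genes with a mean of at least 10 kept (15058), and group fitted as the single term in limma 3.58.1 (R 4.3.3) with an intensity trend. P-values are two-sided and Benjamini-Hochberg adjusted over all tested genes (threshold 0.05). Fold changes on this scale understate low genes. An exact permutation test of 2 against 2 libraries cannot go below p = 0.333 and was not used. Same-numbered libraries were not taken as pairs. The text names all 36 genes, up to 4 related genes with the smallest p per direction past the threshold, and the first 3 markers of a list; Plin4, Prx, Ucp1, Retn, Lep, Ctsb, Elovl2, Elovl3, Mbtps1 and Mbtps2 were named after their values were seen. Members and lists were chosen with earlier results of these data known. Exon lengths and gene positions are those of GENCODE M21 (GRCm38), and promoters those of RefSeq (GRCm38.p6). Python 3.11.15 was used. Alternatives changed the filter, pseudocount, trend, scaling, replicate block and each library in turn. Protein identity between related genes was planned and not run.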

Additional observations from a re-analysis of the deposited data

How the results depend on the processing

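With 2 libraries per group, calls depended on the test. Without the filter on low values, and likewise without the intensity trend, limma called 0 genes higher and 0 lower among all genes, among the 36 genes and among the related genes, while 5472 and 4274 of all genes, 6 and 4 of the 36 genes and 22 and 19 related genes had an unadjusted p under 0.05. When 1 library was left out, the lone library of its group being assumed to vary like the others, all genes called higher ranged from 0 to 587 and lower from 0 to 153, and the genes of the set called higher were 0 throughout, with 1 to 11 at an unadjusted p under 0.05. Related genes called higher then ranged from 0 to 1 and lower were 0. Of the 36 genes, 2 were higher with a pseudocount of 8, 3 after rescaling to the same total, 2 after quantile normalization and 2 with the replicate block; 1 was lower after quantile normalization and 2 with the replicate block. After rescaling, 1 related gene was lower. The median log2 fold change of the set ranged from -0.15 to 0.31 when a library was left out.

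The labels do not say that replicate numbers pair animals, and the deviations of same-numbered libraries correlated at 0.118 across genes. With the replicate block, limma called 1823 genes higher and 1213 lower, and in the set Acacb and Thrsp higher and Lss and Srebf2 lower.

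Over 393 single-gene comparisons, 345 kept direction and side of the threshold, 8 passed newly, 6 lost the threshold and 34 turned sign, 26 of these with a library left out. After rescaling to the same total, the log2 fold changes of Hmgcs1 (0.041), Cyp51 (0.055), Sc5d (0.049), Acss2 (0.066) and Fads1 (0.023) turned positive. After quantile normalization those of Fdps (-0.022), Hsd17b7 (-0.14) and Insig1 (-0.040) turned negative. These scalings moved the median of all tested genes to 0.06 and -0.10. With a library left out, the log2 fold change ranged from -0.13 to 0.046 for Hmgcs1, -0.66 to 0.37 for Pmvk, -0.79 to 0.33 for Idi1, -0.13 to 0.074 for Cyp51, -0.35 to 0.072 for Msmo1, -0.075 to 0.13 for Hsd17b7, -0.17 to 0.10 for Sc5d, -0.34 to 0.40 for Insig1, -0.017 to 0.27 for Srebf1 and -0.56 to 0.045 for Scap. It ranged from -0.47 to 1.14 for Acly, -0.69 to 0.66 for Acss2, -0.49 to 0.86 for Me1, -0.51 to 1.65 for Fasn, -0.16 to 0.50 for Scd2, -0.20 to 2.05 for Elovl6, -0.27 to 0.15 for Fads1 and -0.10 to 0.19 for Fads2. The cause was not tested. Ordered without exon length, 3 of the 5 highest genes in KO and 4 of 5 in WT were among the 5 highest per kilobase.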

Other observations

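Other genes stood with the fatty acid genes in the order by the ratio of KO replicate 1 to KO replicate 2; those named here were chosen after their values were seen. The core clock genes Npas2 and Arntl were in places 13 and 17 of the 9881 genes. Npas2 had 389 and 134 normalized counts in KO, against 633 and 558 in WT, and Arntl had 352 and 127 in KO, against 425 and 301 in WT. In both, KO replicate 2 was the low library. Ucp1, the uncoupling protein gene of brown fat and a member of the adipocyte list, was in place 19, with 722 and 271 in KO, against 41 and 124 in WT.

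The WT libraries also differed. Of the 23 sterol genes, 16 were higher in WT replicate 1 than in WT replicate 2, against 45.75% of all tested genes, and Mvd had 40 there against 20. All 15 macrophage, all 9 fibroblast, all 11 endothelial and all 8 cell division markers were instead lower in WT replicate 1. Of the 14 adipocyte markers 1, Plin4, was higher there, as were 8 of 9 smooth muscle markers. The summed fibroblast markers were 268024 and 275800 in KO, against 80700 and 171979 in WT.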
